A study of Mus musculus with 6 samples.

Results

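The genes of the receptors for GABA, glycine and acetylcholine that are themselves ion channels, together with the 2 genes of the GABA-B receptor, were followed in dorsal root ganglia (DRGs) of control and Tlx3cko mice. Members were all annotated mouse protein-coding genes whose symbol begins with Gabr or Chrn, plus Glra1 to Glra4, Glrb, Gabbr1 and Gabbr2. There were 42 such genes among the 47937 rows of the count table, and 28 of them had a summed count of 10 or more over all 6 libraries. The other 14 genes were under that limit. The counts below cover 25 of the 28. RNA was sequenced from ganglia of cervical, thoracic and lumbar levels in 3 mice per genotype, all of strain C57BL/6 and aged about 2 months. The control mice are labelled wild type. The Tlx3cko mice are labelled Tlx3f/f;SNS-cre, which means that both Tlx3 alleles carried loxP sites and that Cre was driven from the gene of the sodium channel Nav1.8 (Scn10a). In this model Tlx3, a homeobox transcription factor, is removed from Nav1.8-expressing neurons, most of which are nociceptors, and not from the other neurons or the glia of the same ganglion. Whole ganglia were measured, so fewer neurons of one class and less RNA per neuron cannot be told apart. The paper names littermates with loxP sites in Tlx3 as controls for its behavioural tests. Whether the sequenced controls carried these sites is not stated. Effects of Cre or of the loxP sites themselves cannot be told apart from those of Tlx3 loss.

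GABA-A, glycine and nicotinic receptors are pentamers of related subunits, and the subunits that a cell transcribes set which receptors it can build. GABA-A and glycine receptors conduct chloride, and nicotinic receptors conduct cations in response to acetylcholine. The GABA-B receptor is a G-protein-coupled heterodimer. Sensory neurons keep a high intracellular chloride concentration, so GABA depolarizes them, and GABA receptors on their central terminals mediate presynaptic inhibition in the spinal cord.

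The libraries held between 11458299 and 18775628 counts. Tlx3 had between 1828 and 2433 counts in the control and between 1052 and 1717 in the Tlx3cko libraries. After normalization, 72.7% of its control level was still present in Tlx3cko DRGs (log2 fold change -0.46, SE 0.09, edgeR-adjusted p = 0.0122). Xist, the X-inactivation RNA, reached 591 and 493 counts in control replicates 1 and 2, where the Y-linked Ddx3y was at 0. The other 4 libraries had at most 2 counts of Xist and 273 or more of Ddx3y, so sex was not balanced between the genotypes. A second fit therefore gave control replicates 1 and 2 a term of their own and compared the Tlx3cko libraries with control replicate 3 alone. In it the spread came from the Tlx3cko libraries and from control replicates 1 and 2, and the lone control library was assumed to vary like them, so sex and what is particular to single libraries cannot be told apart. Sensory neuron genes such as Prph, Avil and Scn10a were abundant in all libraries. Of 4 autonomic neuron markers, Hand2 had 0 counts everywhere, and the summed level of the 4 ranged from 11.0 to 31.3 normalized counts, that is counts scaled to a common library size, in control and from 14.8 to 21 in Tlx3cko libraries. The 6 spinal cord markers summed to between 90.7 and 120.4 in control and between 57.7 and 148.2 in Tlx3cko libraries, with 4 of them at no more than 3 counts in every library. Markers of neuron classes moved with the genotype. All 5 listed genes of the MrgprD class and all 5 of the TH C-LTMR class, which holds low-threshold C-fibre mechanoreceptors, were lower in Tlx3cko DRGs, with median log2 fold changes (Tlx3cko against control) of -1.81 and -1.39. Gfra2 is in both lists, so the 2 counts are not separate. Of the 5 listed genes of myelinated neurons, 2 were higher and 0 lower, with a median of 0.28. These are counts at an edgeR-adjusted p under 0.05, where 2.56% of all genes tested were lower and 1.69% higher. The part of these class changes in the results on receptor genes was not tested.

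Of these 25 receptor genes, 4 were lower and 2 higher in Tlx3cko DRGs at an adjusted p under 0.05, where 4.25% of all 20006 genes tested passed that threshold (2.56% lower and 1.69% higher). The test was edgeR's quasi-likelihood test over all genes, with Benjamini-Hochberg adjustment. The 4 that fell were the nicotinic subunit genes Chrna3, Chrna4 and Chrnb4 and the GABA-A subunit gene Gabra3. The 2 that rose were the nicotinic subunit genes Chrna6 and Chrnb3. Hence 5 of the 9 neuronal nicotinic genes and 1 of the 11 GABA-A genes covered here passed, and none of the genes for GABA-B, the glycine receptor or the muscle nicotinic receptor did. The median log2 fold change over the 25 genes was -0.001 and that over all genes tested was -0.004. Values of the genotypes did not overlap in 11 of the 25 genes, 7 lower and 4 higher, where 19.7% of all genes tested showed no overlap (10.8% lower and 8.87% higher). An unadjusted p under 0.05 was reached by 9 of the 25 genes and by 14.5% of all genes. The same 6 genes passed with DESeq2 (which called 5.74% of all genes), limma-voom (4.27%), DESeq2 size factors (4.28%), library totals alone (4.3%), no filter on low counts (5.73%), filterByExpr (5.28%), a threshold of 0.01 (2.09%) and the replicate number as a block (3.85%). They also passed in each of the 6 fits that left out 1 library, in which 4.78%, 2.7% and 3.22% of all genes passed without control replicates 1, 2 and 3, and 3.98%, 2.47% and 2.61% without Tlx3cko replicates 1, 2 and 3. In the fit against control replicate 3 alone, which rests on 1 control library, 5 of the 6 passed and 2.43% of all genes did.

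**Figure D1:**
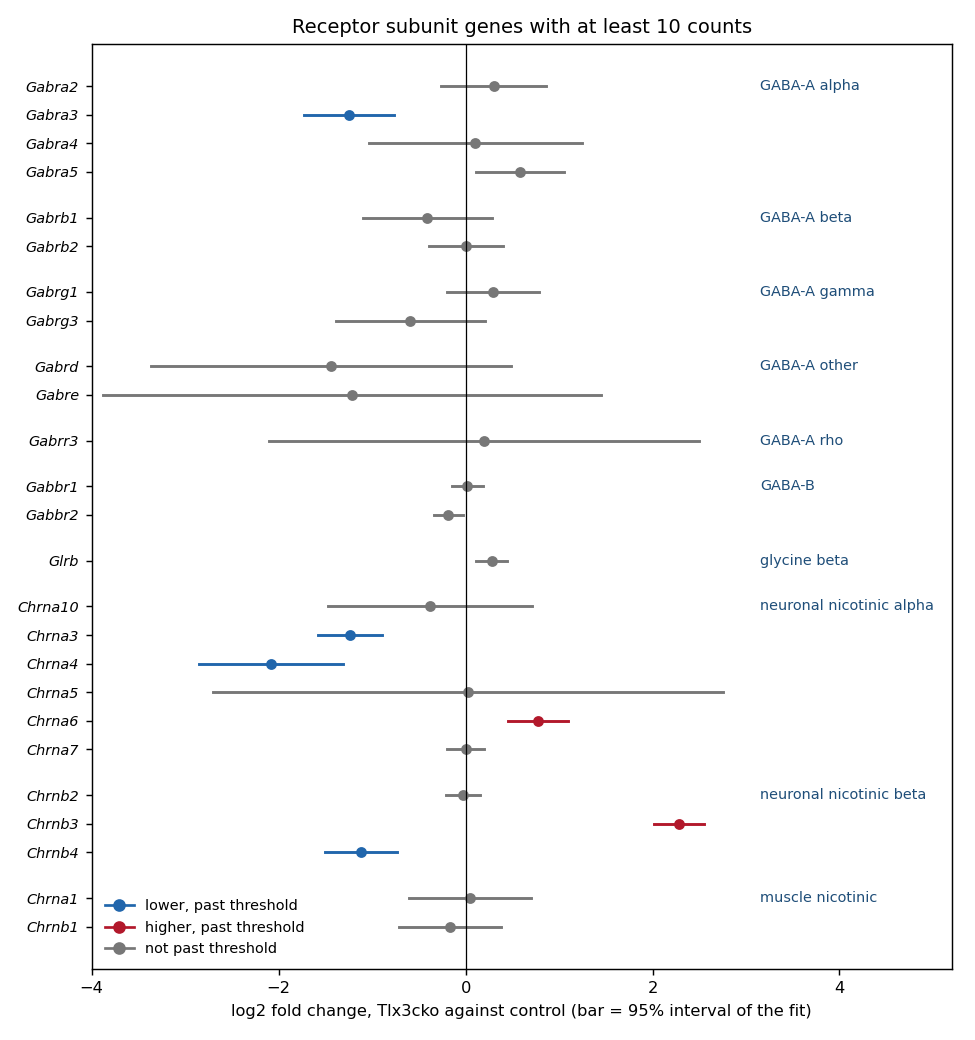
Log2 fold change (x axis, Tlx3cko against control) of 25 receptor subunit genes with at least 10 counts, in rows grouped by subunit role; points are the fitted values and bars their 95% intervals. Chrna4, Gabra3, Chrna3 and Chrnb4 lie below 0 and Chrna6 and Chrnb3 above 0 past the threshold (blue and red), while the grey genes did not pass.

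Chrnb3, on chromosome 8, plus strand, from 27368711 to 27399730 (GRCm38, the assembly also called mm10), changed most of the genes that rose. It encodes an accessory subunit that joins receptors containing the α6 subunit. Controls had 131, 162 and 228 counts, against 821, 636 and 761 in Tlx3cko libraries. Every Tlx3cko library was thus far above every control library, and the spread within each genotype was small. After normalization to a common library size these were 161.6 ± 20.2 counts in control and 791.2 ± 42.8 in Tlx3cko DRGs (SD, n = 3 each). The log2 fold change was 2.28 with a standard error (SE) of 0.12 (edgeR-adjusted p = 6.01e-07), a fold of 4.87. Against control replicate 3 alone it was 2.12.

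Chrna6 lies next to Chrnb3, on the opposite strand from 27403212 to 27413944, with 3481 bases between the 2 genes. It encodes the α6 subunit, a ligand-binding subunit that pairs with β2 or β4. The controls had 382, 678 and 697 counts, against 1057, 667 and 938 in Tlx3cko libraries. The raw counts overlapped through Tlx3cko replicate 2, the shallowest library, but the normalized values did not: the control libraries lay between 412.3 and 676.2 and the Tlx3cko libraries between 875.2 and 1017. The mean rose from 548.2 ± 132 normalized counts to 938.6 ± 72.3 (SD, n = 3 each), which gave a log2 fold change of 0.78 (SE 0.15, edgeR-adjusted p = 0.00817). Against control replicate 3 alone the log2 fold change was 0.76 and did not pass (SE 0.22, edgeR-adjusted p = 0.135, the highest over all alternatives).

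Chrna3 and Chrnb4 are also direct neighbours. They encode the α3 and β4 subunits, which together form the main nicotinic receptor of autonomic ganglia, and lie on the minus strand of chromosome 9 with 1591 bases between them. For Chrna3 the controls had 288, 395 and 497 counts, against 192, 108 and 142 in Tlx3cko libraries. Chrnb4 had 176, 241 and 278 counts in control against 87, 87 and 106 in Tlx3cko libraries. Neither gene showed overlap between the genotypes, in raw or in normalized counts. Chrna3 fell from 367.1 ± 48.7 normalized counts to 155.4 ± 25.5 (SD, n = 3 each), at a log2 fold change of -1.24 (SE 0.16, edgeR-adjusted p = 0.000491). Chrnb4 fell from 217.4 ± 25.5 to 100.7 ± 15.5, with a log2 fold change of -1.12 (SE 0.18, edgeR-adjusted p = 0.00262). The 95% intervals of both log2 fold changes overlapped, from -1.58 to -0.89 for Chrna3 and from -1.50 to -0.73 for Chrnb4. Against control replicate 3 alone, a single library, the log2 fold changes were -1.35 (SE 0.21) and -1.14 (SE 0.24). The autonomic neuron markers given above are at or near 0 in these libraries, apart from Phox2a with 11 to 25 counts and a log2 fold change of -0.08.

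Chrna4 had the largest fall of the 25 genes. It encodes the α4 subunit, which with β2 forms the most common high-affinity nicotine receptor of the brain, and its gene is on chromosome 2, minus strand, from 181018380 to 181043546. Controls had 89, 81 and 123 counts and Tlx3cko libraries 20, 7 and 35, so it was a low-count gene in both genotypes. The Tlx3cko libraries were low but differed among themselves by several fold, with replicate 2 the lowest and replicate 3 the highest. The mean went from 91.7 ± 9.47 to 20.96 ± 12.7 normalized counts (SD, n = 3 each), which is a log2 fold change of -2.09 (SE 0.36, edgeR-adjusted p = 0.00396). Leaving out single libraries gave values between -2.63 and -1.76.

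**Figure D2:**
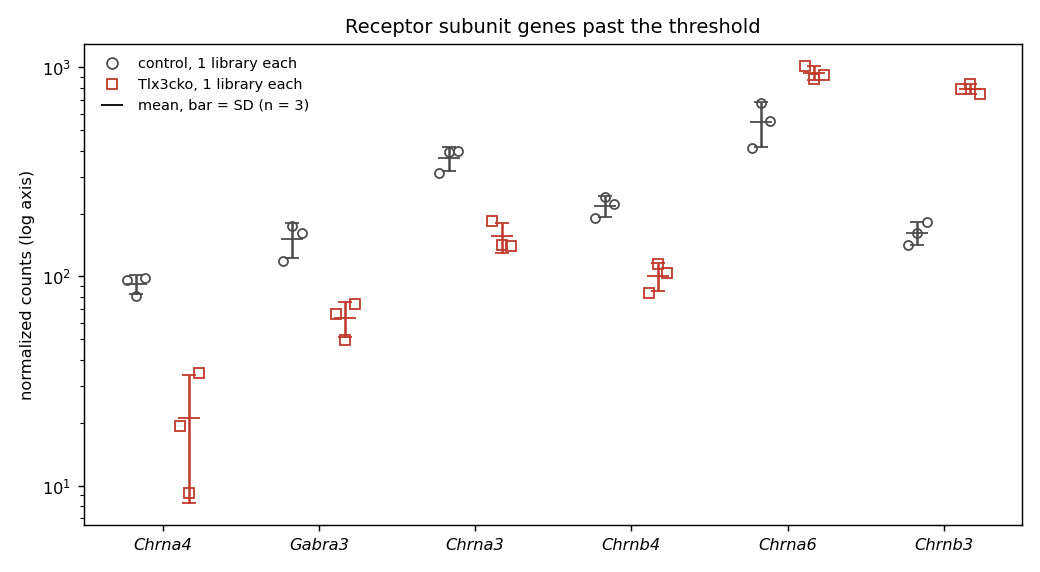
Normalized counts (log axis) of 6 receptor subunit genes past the threshold; open circles are the 3 control and open squares the 3 Tlx3cko libraries, and the bars give the mean and SD. For each gene the symbols of the genotypes do not overlap, with Chrna4 the lowest at 91.7 and 20.96 on average and Chrnb3 the most separated at 161.6 and 791.2.

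The promoters of Chrna3, Chrnb4 and Chrna4, the nicotinic genes that fell and for which the promoter table held an entry, are shown for comparison of their sequence. Each is the RefSeq window of GRCm38.p6 from 250 bases before to 50 bases after the annotated start, written 5′ to 3′ on the strand of the gene, at chr9:55026513-55026812, chr9:55048495-55048794 and chr2:181039128-181039427, all on the minus strand. These RefSeq starts are not always the outermost start in the annotation that gave the gene positions. For Chrna4 that start is at 181043546, outside the window, and for Chrnb4 at 55048779, upstream of the RefSeq start. Matches and their absence refer to these windows only. Capitals mark the GC box GGGCGG or its reverse complement CCGCCC, the letters bound by Sp1-type factors.
Chrna3: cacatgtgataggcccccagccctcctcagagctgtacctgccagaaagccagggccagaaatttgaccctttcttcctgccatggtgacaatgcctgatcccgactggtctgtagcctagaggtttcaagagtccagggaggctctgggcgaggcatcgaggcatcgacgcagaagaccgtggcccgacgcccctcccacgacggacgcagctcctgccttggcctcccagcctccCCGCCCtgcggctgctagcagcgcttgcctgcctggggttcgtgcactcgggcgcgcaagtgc
Chrnb4: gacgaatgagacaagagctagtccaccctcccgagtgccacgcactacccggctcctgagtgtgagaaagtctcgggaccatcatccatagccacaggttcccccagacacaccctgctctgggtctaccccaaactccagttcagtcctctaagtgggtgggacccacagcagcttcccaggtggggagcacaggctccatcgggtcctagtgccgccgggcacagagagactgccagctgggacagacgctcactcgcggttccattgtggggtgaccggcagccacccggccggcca
Chrna4: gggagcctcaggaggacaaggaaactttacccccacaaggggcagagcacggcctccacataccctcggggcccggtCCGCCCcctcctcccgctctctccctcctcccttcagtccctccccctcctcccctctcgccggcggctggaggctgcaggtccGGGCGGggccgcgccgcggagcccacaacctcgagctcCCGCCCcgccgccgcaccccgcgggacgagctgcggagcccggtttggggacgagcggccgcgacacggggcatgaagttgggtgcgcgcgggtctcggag
Chrna3 has 1 GC box, Chrnb4 has 0 and Chrna4 has 3, where 35.7% of the 32851 RefSeq promoter windows of this length hold at least 1 on either strand. The windows are 64.3%, 63.0% and 74.3% G or C, above the median of 52.7% over all windows. The letters TAATTA and TAATTG, core sites of homeodomain proteins, which 5.29% and 8% of all windows hold, and TGTGGT, the core site of Runx factors, held by 16.8%, were searched on both strands in the same windows and are not in any of the 3. The matches are descriptions of sequence and not of binding. Chrna3 and Chrnb4, whose falls were of like size, thus do not share a match among the 4 motifs searched.

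The remaining neuronal nicotinic genes did not pass the threshold. Chrnb2, the β2 subunit that most neuronal receptors use, was the most abundant nicotinic gene, with 3294 ± 184 normalized counts in control against 3227 ± 272 in Tlx3cko DRGs (SD, n = 3 each). Its log2 fold change was -0.03, with a 95% interval from -0.21 to 0.15. Adar, a gene on the other strand, covers 16.3% of the exonic bases of Chrnb2, so reads of both could have been mixed if the counting did not use strand. Chrna7, whose subunit forms receptors on its own, had 892.0 ± 53.1 and 891.6 ± 31.8 normalized counts, and its interval ran from -0.19 to 0.19 on the log2 scale. Both intervals leave out a change as large as that of any of the 6 genes that passed. Chrna10 had between 4 and 24 counts per library, with 39% of its exonic bases under Art1 on the other strand, and Chrna5 between 0 and 11. For Chrna10 and Chrna5 the intervals spanned -1.48 to 0.71 and -2.70 to 2.76, which leaves room for a difference in either direction. Chrna2 had 2, 1 and 2 counts in control and 0 in each Tlx3cko library, and Chrna9 had 1 count in all.

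To compare levels between genes, normalized counts were divided by the exon length of each gene in kilobases. On this scale the order in control DRGs was Chrnb2 (393.1 ± 21.9), Chrna7 (198.0 ± 11.8), Chrna6 (188.6 ± 45.5), Chrna3 (69.7 ± 9.25), Chrnb4 (58.4 ± 6.85), Chrnb3 (25.4 ± 3.18) and Chrna4 (18.3 ± 1.89), as means ± SD of 3 libraries. Chrna7 and Chrna6 changed order between the control libraries. Chrna3 was above Chrnb4 in each control library, at 59.04, 74.83 and 75.3 against 51.03, 64.56 and 59.56, but not in each Tlx3cko library. In Tlx3cko DRGs the levels per kilobase were 385.1 ± 32.4 for Chrnb2, 323.0 ± 24.9 for Chrna6, 197.9 ± 7.05 for Chrna7 and 124.2 ± 6.72 for Chrnb3, followed by Chrna3 (29.5 ± 4.84), Chrnb4 (27.1 ± 4.17) and Chrna4 (4.17 ± 2.53). Chrnb3 thus stood below Chrna3 and Chrnb4 in control and above both in Tlx3cko DRGs.

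The shares of the subunits within their family shifted accordingly. Of the length-scaled total of the 3 neuronal β genes, Chrnb3 made up 4.81%, 5.005% and 6.18% in control libraries against 24.99%, 22.8% and 21.9% in Tlx3cko libraries. The share of Chrnb4 went from 12.2% ± 1.02 to 5.03% ± 0.43, and that of Chrnb2 from 82.4% ± 1.62 to 71.8% ± 1.21 (SD, n = 3 each), although the level of Chrnb2 itself did not pass the test. Among the 6 neuronal α genes, Chrna6 went from 38.6% ± 5.50 to 57.5% ± 1.76 of the total, while Chrna3 went from 14.4% ± 1.15 to 5.24% ± 0.62. The ratio of Chrnb3 to Chrnb4 per kilobase was between 0.39 and 0.48 in control and between 4.197 and 5.52 in Tlx3cko libraries. It follows from the opposite changes of both genes and is not a separate result (exact two-sided permutation test, p = 0.1). None of the shares given here overlapped between the genotypes (exact two-sided permutation test, p = 0.1 each, the smallest that 3 against 3 libraries allow). The shares of Chrna7, Chrna10 and Chrna5 did overlap. All shares rest on the same counts as the tests of single genes and are not separate results. The summed level per kilobase changed less: the α genes summed to 483.5 ± 50.9 in control and 561.6 ± 25.9 in Tlx3cko DRGs, and the β genes to 476.8 ± 26.0 and 536.4 ± 39.5, without overlap for the α and with overlap for the β genes.

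**Figure D3:**
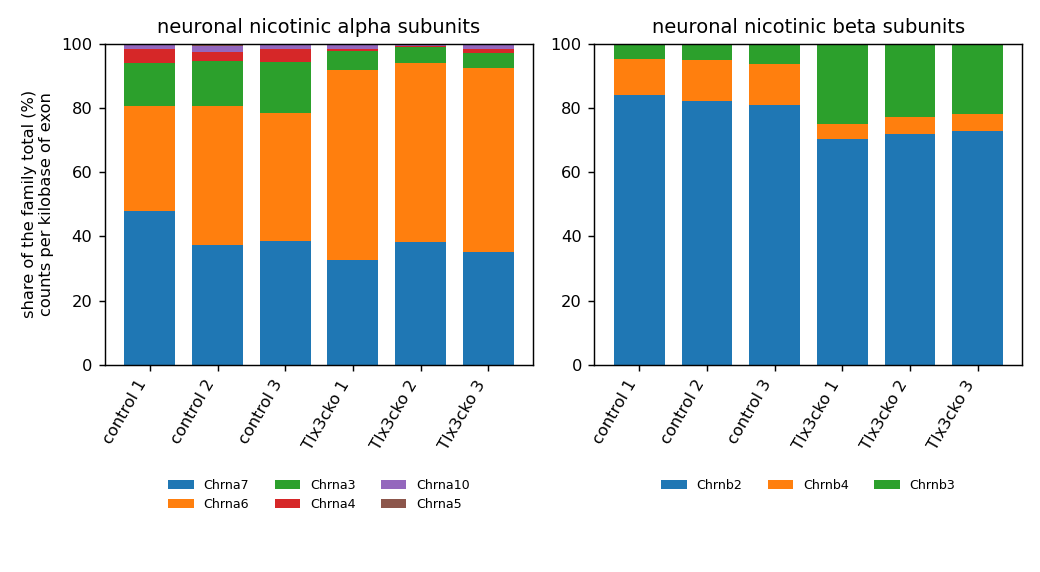
Share of each subunit gene (y axis, percent) in the summed normalized counts per kilobase of its family, 1 bar per library, for neuronal nicotinic α genes and neuronal nicotinic β genes. In the β panel the Chrnb3 segment widens from between 4.81% and 6.18% in control to between 21.9% and 24.99% in Tlx3cko libraries.

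Of the 11 GABA-A genes covered here, the α subunit gene Gabra3 fell. The α subunit helps to form the GABA site and sets, with the γ subunit, the sensitivity to benzodiazepines. Gabra3, on chromosome X from 72432681 to 72656848, had 110, 175 and 202 counts in control against 69, 38 and 75 in Tlx3cko libraries. Every control library was above every Tlx3cko library. The mean fell from 151.5 ± 29.1 normalized counts to 63.4 ± 12.3, with a log2 fold change of -1.25 (SE 0.22, edgeR-adjusted p = 0.00531). Against control replicate 3 alone, a single library, the log2 fold change of this X-linked gene was -1.33 (SE 0.30).

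Gabra5 and Gabra2 had positive fold changes that did not pass. Gabra5, an α subunit mostly found in extrasynaptic receptors, had 83, 72 and 130 counts in control against 120, 90 and 167 in Tlx3cko libraries, and after normalization 88.4 ± 16.0 and 132.6 ± 27.5 without overlap (log2 fold change 0.58, SE 0.22, edgeR-adjusted p = 0.201). Gabra2 varied widely within each genotype, between 274.4 and 498.7 normalized counts in control and between 332.0 and 625.9 in Tlx3cko libraries, which left the log2 fold change at 0.30 (SE 0.26). Gabra4 was near the limit of detection, with 9 to 14 counts per library, and Gabra6 had 0 counts in all.

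Gabrb1, Gabrb2, Gabrg1 and Gabrg3, genes of β and γ subunits, did not pass the threshold. Gabrb2 had 121.9 ± 5.73 normalized counts in control against 122.6 ± 17.2 in Tlx3cko DRGs, and Gabrb1 52.7 ± 11.0 and 39.6 ± 15.3 (SD, n = 3 each). Gabrg1 and Gabrg3 had between 81 and 184 and between 12 and 37 counts per library, with log2 fold changes of 0.29 (SE 0.23) and -0.59 (SE 0.37).

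The less common GABA-A genes were at the edge of detection. Gabrd, the δ subunit of extrasynaptic receptors, had 9, 7 and 8 counts in control against 4, 0 and 4 in Tlx3cko libraries, without overlap and with a log2 fold change of -1.44 whose SE was 0.89. Gabre had between 0 and 9 counts per library and Gabrr3 between 0 and 4. Gabrp, Gabrq, Gabrr1 and Gabrr2 had 1, 8, 5 and 5 counts in all 6 libraries together and were not tested.

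The GABA-B receptor genes were the most abundant of the 25 genes per kilobase. Gabbr1, which binds GABA, had 9422 ± 716 normalized counts in control against 9555 ± 426 in Tlx3cko DRGs, with a log2 fold change of 0.02 and a 95% interval from -0.14 to 0.18. Gabbr2, which couples the receptor to G proteins, had 3988, 4152 and 5464 counts in control against 3939, 2962 and 3652 in Tlx3cko libraries, which came to 4268 ± 113 and 3757 ± 149 after normalization. Its values did not overlap, but the log2 fold change of -0.18 (SE 0.07) did not pass over all genes (edgeR-adjusted p = 0.217). The ratio of Gabbr1 to Gabbr2 per kilobase was between 1.84 and 2.02 in control and between 2.10 and 2.28 in Tlx3cko libraries.

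Of the glycine receptor genes, Glrb alone was detected beyond a few counts. It encodes the β subunit, which binds the scaffold protein gephyrin and needs an α subunit to bind glycine at high affinity in a typical receptor. Glrb had 1656, 1754 and 2369 counts in control against 2386, 1611 and 2207 in Tlx3cko libraries, or 1809 ± 72.6 and 2194 ± 93.2 after normalization, without overlap. The log2 fold change of 0.28 (SE 0.08) did not pass (edgeR-adjusted p = 0.0617), although it did with DESeq2 (0.0224), without a filter on low counts (0.0435) and with edgeR's filterByExpr (0.0476); over all alternatives it lay between 0.0224 and 0.518. The α subunit genes Glra1 and Glra4 had 5 counts and 1 count in all libraries together, and Glra2 and Glra3 had 0.

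The subunit genes of the muscle nicotinic receptor were low in both genotypes. Chrnb1 had between 84 and 166 counts per library and Chrna1 between 30 and 44, with log2 fold changes of -0.16 (SE 0.25) and 0.05 (SE 0.30). Chrnd, Chrng and Chrne had 1, 1 and 3 counts in all. The 8 skeletal muscle markers summed to between 113.3 and 2120 normalized counts in control and between 1650 and 3001 in Tlx3cko libraries, and 1 of them, Myh4, was higher past the threshold.

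By position, 20 of the 39 genes covered here lie in 8 groups of neighbours with at most 500000 bases between adjacent genes. Of the 6 genes that passed, 4 sat in pairs of direct neighbours that moved in the same direction, Chrnb3 with Chrna6 and Chrna3 with Chrnb4. Chrna5, which lies 2331 bases from Chrna3, had too few counts to be placed. None of the genes covered in the groups on chromosomes 5 and 7 passed. Other tested protein-coding genes within 250 kb of these neuronal nicotinic groups did not pass: the 9 around Chrna5, Chrna3 and Chrnb4 had log2 fold changes from -0.37 to 0.24, and the 5 around Chrnb3 and Chrna6 from -0.23 to 0.88, the last for Adrb3 with an SE of 1.13.

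**Figure D4:**
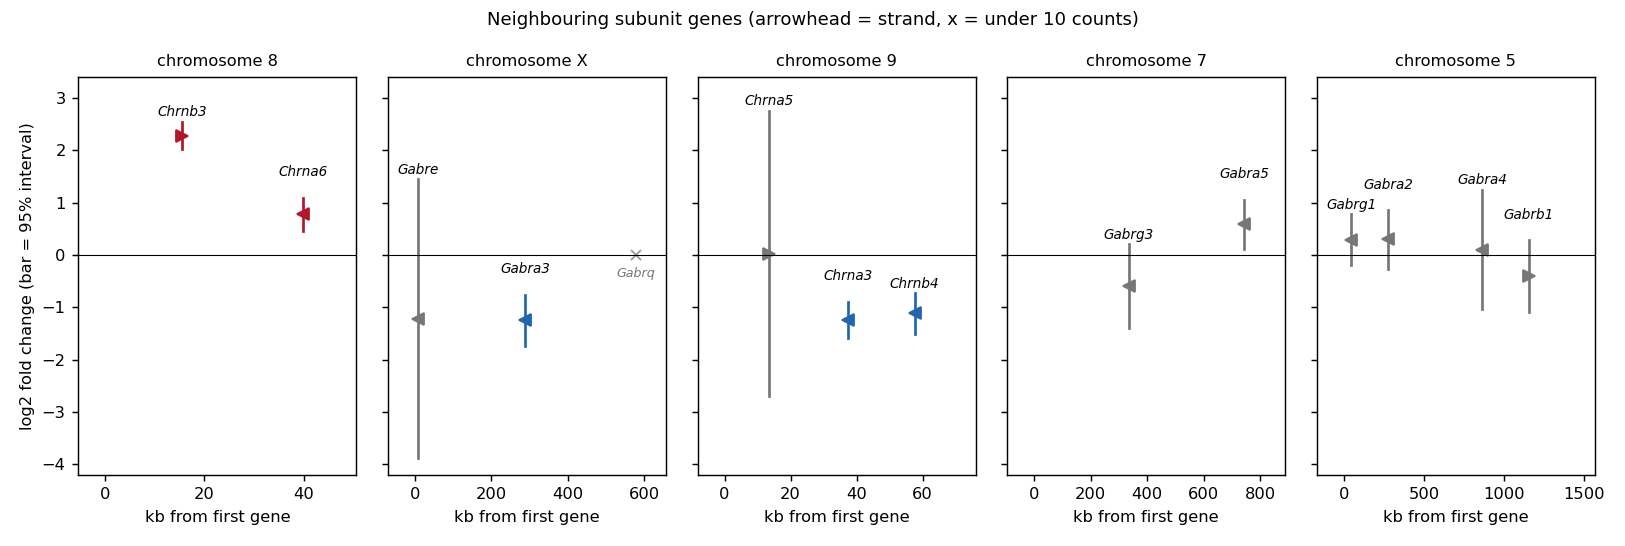
Log2 fold change (y axis, bars are 95% intervals) of subunit genes that neighbour each other, against distance in kb from the start of the group (x axis); arrowheads give the strand, blue and red mark genes lower and higher past the threshold, and crosses mark genes under 10 counts. Chrnb3 and Chrna6 lie above 0 together, at 2.28 and 0.78, and Chrna3 and Chrnb4 below 0, at -1.24 and -1.12.

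Genes that supply, place or modulate these receptors were listed in 6 groups with 57 genes, of which 53 were tested, and 1 was lower and 3 higher past the threshold, which is 7.55% against 4.25% of all genes tested (2.56% lower and 1.69% higher). Among the 8 tested genes of GABA and glycine synthesis, transport and breakdown, 0 passed, and 3 had an unadjusted p under 0.05, which 14.5% of all genes tested reached. Gad1 and Gad2, which make GABA, and the vesicular transporter Slc32a1 had at most 11, 4 and 4 counts per library. Abat, which breaks down GABA, was abundant, with 995.4 ± 57.6 normalized counts in control against 820.1 ± 27.3 in Tlx3cko DRGs, without overlap but short of the threshold (log2 fold change -0.28, edgeR-adjusted p = 0.115). Slc6a9, a glycine transporter, had 73.8 ± 11.7 and 41.5 ± 2.51 normalized counts, likewise without overlap (log2 fold change -0.83, edgeR-adjusted p = 0.0886).

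None of the 8 chloride transport genes passed, and 3 had an unadjusted p under 0.05, against 14.5% of all genes tested. Slc12a2, the cotransporter NKCC1 that loads sensory neurons with chloride, had 1793 ± 328 normalized counts in control against 1678 ± 106 in Tlx3cko DRGs, with a 95% interval of the log2 fold change from -0.35 to 0.16. Slc12a5, the chloride exporter KCC2, had between 8 and 44 counts per library. None of the 19 genes of anchoring, trafficking and auxiliary subunits passed, with 2 at an unadjusted p under 0.05, against the same 14.5%. Their log2 fold changes ran from -0.998 for Kctd12b to 0.21 for Hap1, and gephyrin (Gphn) had 501.8 ± 34.8 and 549.1 ± 66.7 normalized counts.

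In the group of nicotinic receptor chaperones and Ly6 proteins, which resemble snake toxins and bind nicotinic receptors, 1 of 8 genes was lower and 1 higher. Over all genes tested these shares were 2.56% and 1.69%. An unadjusted p under 0.05 in the edgeR test was reached by 5 of the 8, against 14.5% of all genes tested. Lypd6b had 101, 148 and 204 counts in control against 38, 21 and 30 in Tlx3cko libraries. It fell from 139.8 ± 27.7 normalized counts to 31.2 ± 4.74 (SD, n = 3 each), at a log2 fold change of -2.15 (SE 0.24, edgeR-adjusted p = 0.000155), and passed in every alternative fitted. The related gene Lypd6 had a log2 fold change of -0.87 (SE 0.31) that did not pass (edgeR-adjusted p = 0.177). Lynx1, a brake on nicotinic receptors, rose from 10989 ± 524 normalized counts to 13543 ± 437, a log2 fold change of 0.30 (edgeR-adjusted p = 0.0224), and lost this call in 5 of the 6 fits that left out 1 library, all except the one without control replicate 1, and against control replicate 3 alone (adjusted p = 0.0698; the highest over all alternatives was 0.0875). The chaperones Ric3 and Tmem35a did not pass, with log2 fold changes of 0.13 and -0.11 and SEs of 0.09 each.

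In the group for acetylcholine supply, Slc18a3, the vesicular acetylcholine transporter, had 0, 0 and 1 counts in control against 17, 20 and 20 in Tlx3cko libraries. Its Tlx3cko mean was 7.22-fold a floor of 3 counts per control library, which no control library reached (edgeR-adjusted p = 0.00266). This value takes no account of the error of the Tlx3cko counts. Chat, the synthesizing enzyme, whose gene spans Slc18a3 on the same strand of chromosome 14, so that reads could be split between them, had 0 counts in each control and 1, 4 and 1 in the Tlx3cko libraries, too few to test. Against control replicate 3 alone Slc18a3 did not pass (adjusted p = 0.111; the highest over all alternatives). The other 4 genes of the group tested did not pass, among them Ache, the enzyme that degrades acetylcholine, with 1967 ± 83.2 and 2321 ± 111 normalized counts (edgeR-adjusted p = 0.123). Of the 5 tested genes, Slc18a3 included, 4 had an unadjusted p under 0.05 in the edgeR test, against 14.5% of all genes tested. Values of the genotypes did not overlap in 4 of the 5, 1 lower and 3 higher, where 19.7% of all genes tested showed no overlap. Among these, Slc5a7 had a log2 fold change of 0.645 and Bche of -0.57. In the group of the neuromuscular postsynapse, Agrn rose from 627.7 ± 64.0 normalized counts to 887.1 ± 24.2 (log2 fold change 0.50, edgeR-adjusted p = 0.0114) and the other 4 genes did not pass. That call was lost when control replicate 2 or either of Tlx3cko replicates 2 and 3 was left out, with adjusted p up to 0.056, and against control replicate 3 alone (0.108; the highest over all alternatives). The part of the skeletal muscle markers, whose sums are given above, in this difference was not tested.

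**Figure D5:**
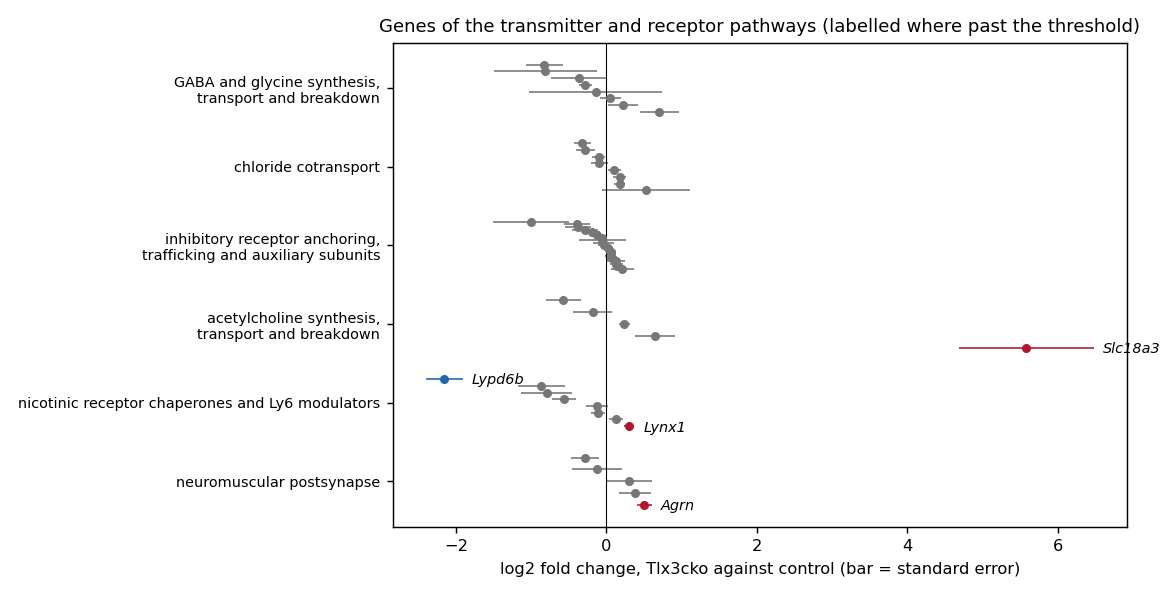
Log2 fold change (x axis, bars are standard errors) of the 53 tested genes that supply, place or modulate these receptors, in rows by list; genes past the threshold are coloured and named. Lypd6b lies at -2.15, while Lynx1, Agrn and Slc18a3 lie to the right. The fitted position of Slc18a3 depends on counts of 0 and 1 in control. Against a floor of 3 counts per control library its fold was 7.22.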

How the data were processed

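The authors deposited 1 table of raw read counts per gene, without normalization, for 3 control and 3 Tlx3cko libraries (NEBNext Ultra kit, paired-end Illumina reads). The submitters' processing notes name STAR 2.5.2a and the build mm10. The counting program, its annotation and its use of strand are not given in the sources used here. Of 47937 rows, 47729 carry Ensembl identifiers, 47310 of which matched GENCODE release M21 (GRCm38), and 208 are loci outside the annotation.

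The 20006 genes whose counts summed to 10 or more entered TMM normalization and the test of edgeR 4.0.16 (estimateDisp, glmQLFit, glmQLFTest; R 4.3.3) at a Benjamini-Hochberg adjusted p under 0.05. Each SE is the log2 fold change divided by the square root of its F value. Normalized counts refer to an effective library size of 14970767, the mean of the 6. With 3 libraries against 3, an exact permutation test cannot fall below 0.1. Labels do not say more of the mice, so p-values measure the spread between these libraries. Replicates differed by more than sampling noise (chi-square per degree of freedom at least 4.32).

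Genes named are members past the threshold, members without overlap between the genotypes and a mean of at least 50 normalized counts, the most abundant member of each role per kilobase, and pathway genes past the threshold or of synthesis and chloride transport; other members and pathway genes with values in the text were added after their values were seen, to account for the other members covered. Of the 28 members with at least 10 counts, 3 are not reported here, and 2 list genes were left out as well. The members and lists were chosen with earlier results of these data known. Transcripts of the 25 genes described were searched with blastn 2.17.0+ (at least 100 bases, 98% identity); the 4 with a match matched only genes that overlap them on the other strand. In simulated counts for this comparison, with 200 changed genes among 19949 tested, 97% of 4-fold and 71% of 2-fold changes were recovered, and 10.2% of calls were unchanged genes. The changed genes were drawn only from genes above a minimum mean count. Chrna5, Chrna10, Gabra4, Gabrd, Gabre and Gabrr3 lie below it, so the recovery rates do not cover them. Alternatives used DESeq2 1.42.0, limma-voom (limma 3.58.1), other normalizations, filters and thresholds, the replicate number as a block, each library left out, and control replicate 3 alone.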

Additional observations from a re-analysis of the deposited data

How the results depend on the processing

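The 6 receptor genes past the threshold were the same in all alternatives, except that Chrna6 was lost against control replicate 3 alone and Glrb was gained with DESeq2 (log2 fold change 0.284), without a filter on low counts (0.276) and with filterByExpr (0.288). The same replicate number did not pair the libraries: correlations of same-numbered deviations were -0.07, -0.01 and -0.06, and no library correlated best with its own number. With the replicate block 770 genes passed, with the same 6 receptor genes. The count over all genes (851) was 1529 without a filter on low counts, 418 at an adjusted p under 0.01, 487 against control replicate 3 alone, and 488 to 938 with 1 library left out, lowest without Tlx3cko replicate 2 and highest without control replicate 1. The count of pathway genes (4) was 8 without a filter, 2 at 0.01, 1 against control replicate 3 alone and between 2 (without replicate 2 of control or replicate 2 or 3 of Tlx3cko) and 5 with 1 library left out. Signs near 0 were not fixed. For Chrna7 the log2 fold change was 0.005 with DESeq2 and with its size factors, 0.002 with limma-voom, 0.009 with filterByExpr, 0.000 with the replicate block, 0.095 against control replicate 3 alone and -0.047 to 0.036 with 1 library left out. Against control replicate 3 alone it was 0.191 for Chrnb1, 0.042 for Chrnb2, -0.098 for Gabbr1 and -0.163 for Gabrr3. With 1 library left out it ranged from -0.32 to 0.101 for Chrnb1, -0.075 to 0.036 for Chrnb2, -0.022 to 0.083 for Gabbr1 and -0.322 to 0.663 for Gabrr3. The causes were not tested. Depth limits Chrna5, Chrna10, Gabra4, Gabrd, Gabre and Gabrr3, which had at most 24 counts in any library.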

Other observations

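The muscle subunit genes Chrnd and Chrng on chromosome 1 had 1 count each in all libraries together. Of the 6 other tested protein-coding genes within 250 kb of them, 1 passed the threshold, Ecel1. Over all genes tested, 4.25% passed and 1.69% were higher. Around the other groups of neighbouring subunit genes, no such gene passed. Ecel1 had 3, 12 and 20 counts in control against 311, 98 and 132 in Tlx3cko libraries (log2 fold change 4.10, SE 0.45, edgeR-adjusted p = 0.000131). Ecel1 encodes a membrane metallopeptidase of neurons. Pax2, a transcription factor gene from the list of spinal cord markers, had 26, 34 and 24 counts in control against 5, 1 and 6 in Tlx3cko libraries (log2 fold change -2.65, edgeR-adjusted p = 0.0164), while the other spinal cord marker tested, Aqp4, did not pass and the remaining 4 were at no more than 3 counts in every library. Both genes were named after their values were seen.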
